A study of Mus musculus with 5 samples.

Results

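The cytosolic ribosomal protein genes were taken as all gene symbols that start with Rpl or Rps and a digit, with Rplp0, Rplp1, Rplp2 and Rpsa, leaving out the Rps6k kinases and symbols with -ps, which mark pseudogenes. This rule gave 84 of the 14454 symbols listed, 50 with large subunit and 34 with small subunit names. Among them 77 name ribosomal proteins in the strict sense. The other 7 are paralogs (Rpl22l1, Rpl36al, Rpl39l, Rpl7l1, Rps27l and Rps4y2) and Rps19bp1, which encodes a protein that binds Rps19. RNA was sequenced from 5 derivatives of NIH/3T3 cells, which are immortalised fibroblasts from mouse embryos. Each derivative had EGFP-tagged human histone H2A integrated in its genome. The histone was wild type in 1 line (wt) and carried the T120D substitution, a threonine replaced by an aspartate, in 4 lines numbered 3, 6, 15 and 18. All lines were grown in DMEM with fetal calf serum and gentamicin. Whether the lines are separate clones, and which promoter drives the fusion gene, is not given in the sources used here.

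A ribosome has a large subunit, where peptide bonds form, and a small subunit, which reads the messenger RNA. Nearly every ribosomal protein is present as a single copy in each ribosome, and its gene is among the most active in a growing cell. Mammalian ribosomal protein mRNAs start with a tract of pyrimidines, the terminal oligopyrimidine (TOP) tract, through which mTOR signalling controls their translation. These mRNAs have also been copied back into the genome many times as processed pseudogenes.

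Each line has a table of RPKM, reads scaled to transcript length and to library depth. The depth estimated from the steps of low values was 2530000 to 2720000 reads per line. Markers of fibroblasts had values for all 8 genes listed and summed to 2197 to 2533 RPKM in the T120D lines and 2694 in wt. S100a4 and Vim made up most of the sum, and single markers set wt apart: Pdgfra was at 11.5 to 15.1 RPKM in T120D against 43.5, Col3a1 at 12.7 to 16.9 against 45.2, Pdgfrb at 7.16 to 8.53 against 18.5 and Thy1 at 48.5 to 61.5 against 20.3. Their part in the results below was not tested. The highest marker of epithelial cells reached 0.476 RPKM, of endothelial cells 0.471, of skeletal muscle 0.683 and of macrophages 5.32 (Cd14), with Pecam1 and Tek at 0 in every line.

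The listed levels of the ribosomal protein genes were very unequal, although RPKM is a level per length. In the wt line they ran from 0 RPKM for Rpl34 to 1310 for Rpl41, with a median of 52.0, 17 genes under 10 RPKM and 22 above 100. Much of their sequence is shared with other genes. For 83 of the 84 genes, the protein-coding sequence of the GENCODE M21 annotation (build GRCm38, not the mm9 used for the deposited values) was cut into overlapping words of 50 bases. A median of 90.3% of a gene's words were also found in a transcript of another annotated gene, and 80 of the 83 shared words with at least 1 pseudogene. Across 76 mitochondrial ribosomal protein genes, which are built into another ribosome, the median was 0%.

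Genes with little shared sequence were listed at higher levels. The 13 members with under 50% of words shared had a median of 110.7 RPKM in wt, the 10 members between 50% and 80% a median of 104.9, and the 60 members of at least 80% a median of 40.8. Rpl8, with 8.73% shared, was at 683.7 RPKM in wt. Rps27 and Rpl24, with 100% shared, were at 5.10 and 2.7. Across 83 genes, Spearman's rho between level and shared share was -0.32 (Pearson's r -0.32), a description over genes that share libraries and depth. Between level and transcript length, rho over the same genes was 0.38 (Pearson's r 0.37), so level followed length at least as closely. Rpl41, at 100% shared, had the highest level of all, so the order is loose.

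**Figure D1:**
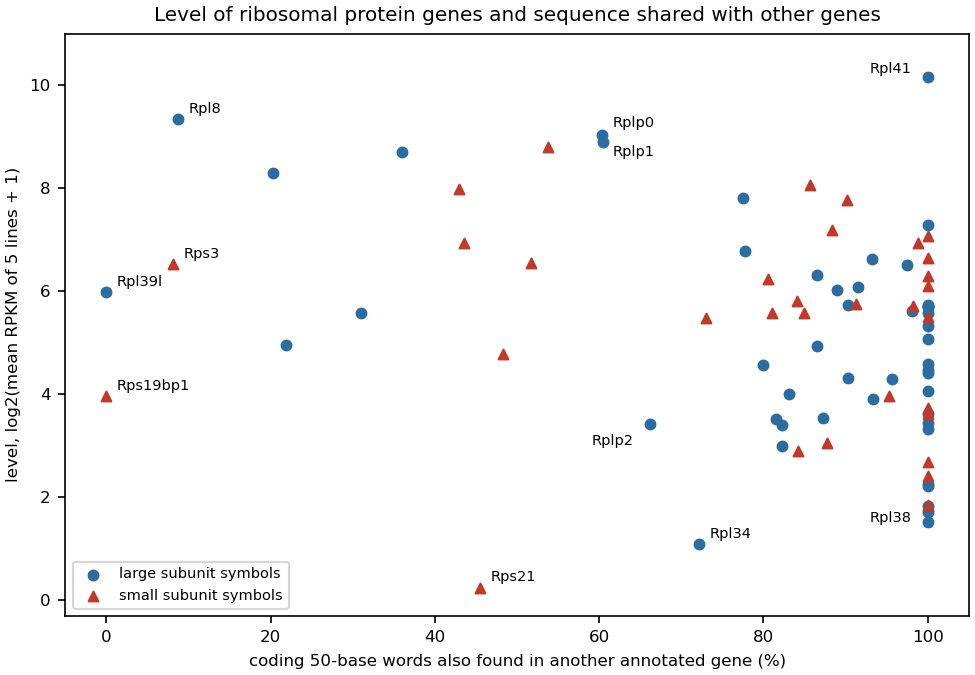
Level of 82 ribosomal protein genes, as log2 of the mean RPKM of 5 lines plus 1 (vertical axis), against the percentage of their coding 50-base words found in another annotated gene (horizontal axis). Each point is a gene, blue circles for large and red triangles for small subunit symbols; the genes under 3 on the vertical axis lie at 80% or more, apart from Rps21 and Rpl34.

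For 3 genes the values were far higher under a pseudogene's symbol than under the gene's own. Rplp2 was at 9.15 RPKM in wt and Rplp2-ps1 at 752.2. Rps15a was at 7.36 RPKM, Rps15a-ps4 at 156.8 and Rps15a-ps6 at 174.9. Rpl31 was at 19.6 RPKM and Rpl31-ps12 at 125.8. For Rps19 the gene's own value was the higher, at 68.2 RPKM against 12.1 for Rps19-ps3. The T120D lines had the same order, with Rplp2 at 7.67 to 11.2 RPKM and Rplp2-ps1 at 667.5 to 712.9. Rplp2 was not compared base by base with Rplp2-ps1, and only 9.80% of its coding words were found in an annotated pseudogene. For Rpl31 and Rps15a, the 60-base coding stretches below, from the GENCODE transcripts, show how little separates gene and pseudogene. Capitals mark the bases at which they differ.
Rpl31: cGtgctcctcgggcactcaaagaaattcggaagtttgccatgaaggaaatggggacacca
Rpl31-ps12: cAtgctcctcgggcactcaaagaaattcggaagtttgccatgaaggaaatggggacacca
Rps15a: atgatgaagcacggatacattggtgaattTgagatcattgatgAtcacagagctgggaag
Rps15a-ps6: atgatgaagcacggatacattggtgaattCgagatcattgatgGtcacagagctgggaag
Over the whole coding sequence Rpl31-ps12 was 98.9% identical to Rpl31 and Rps15a-ps6 98.7% identical to Rps15a. A read of 50 bases that lies in a shared word fits both copies, and how such reads were assigned is not given in the sources used here. Its part in the levels was not tested. Differences between lines compare each gene with itself, but the values of single members remain uncertain.

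A pyrimidine tract lay near the start of most members. RefSeq promoters (GRCm38.p6) were found for 63 of the 84 genes. A C followed by at least 7 bases that are each C or T occurred within 50 bases of the annotated start in 78.4% of 74 member starts and in 28.8% of all 32851 starts. On the opposite strand the shares were 21.6% and 31.6%. Among called genes with a promoter, Rpl10a, Rpl13, Rpl22, Rpl27a, Rpl39, Rpl41, Rps6, Rps9 and Rps19 had such a tract. Rps3, Rps3a1, Rps4x, Rps28 and Rpl7l1, also called, had none. The windows of 3 called genes whose tract began within 5 bases of the annotated start, and of the stalk gene Rplp2, are shown with the tract in capitals.
Rpl27a, chr7:109519185-109519214, plus strand: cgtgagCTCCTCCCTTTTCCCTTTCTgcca
Rps9, chr7:3704030-3704059, plus strand: ccttgtCTCTCTTTgtctcgggcctgagtt
Rps6, chr4:86857345-86857374, minus strand: gtcgggCCTCTTTTTCgtgacgcctcccag
Rplp2, chr7:141447641-141447670, plus strand: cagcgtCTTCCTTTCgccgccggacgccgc
These windows were searched on the strand of the gene only, so the strand of the tract was set by the search. A match of letters is not a measured start.

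The T120D lines were compared with the wt line to ask which ribosomal protein genes differ between cells with the mutant and the wild-type histone. Most members were listed lower in T120D. Of the 82 members that passed the filter on low values (an average of 1 RPKM or more across all lines), 18 were called lower and 3 higher by limma on log2(RPKM + 1), at a Benjamini-Hochberg adjusted p under 0.05 over all 10052 tested genes. Over all tested genes 13.1% were called, 5.45% lower and 7.65% higher, against 22% of members lower and 3.66% higher. The median log2 difference of the members was -0.24, against -0.02 over all tested genes. By line the members' median was -0.31 (line 3), -0.19 (line 6), -0.26 (line 15) and -0.24 (line 18). The mean difference was below 0 for 67 of the 82 members (81.7%) and for 51.7% of all tested genes.

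All 4 T120D lines lay below the wt line for 46 members (56.1%), against 32.3% of all tested genes. They lay above it for 9 members (11%), against 31.1%. The members summed to 9562 RPKM in wt, 6.02% of all RPKM of the line. In the T120D lines they summed to 7732 to 8324 RPKM, or 4.81% to 5.18%. The test rests on 1 wt line, which is assumed to vary like the T120D lines, and the smallest one-sided p that an exact permutation test can give here is 0.2. The calls depend on the variance model: limma without an intensity trend called 1 member, Rps19, lower and 0 higher. Without the filter on low values 6 were lower and 0 higher, and without line 3 there were 8 lower and 1 higher, 9 of the 21 original calls.

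**Figure D2:**
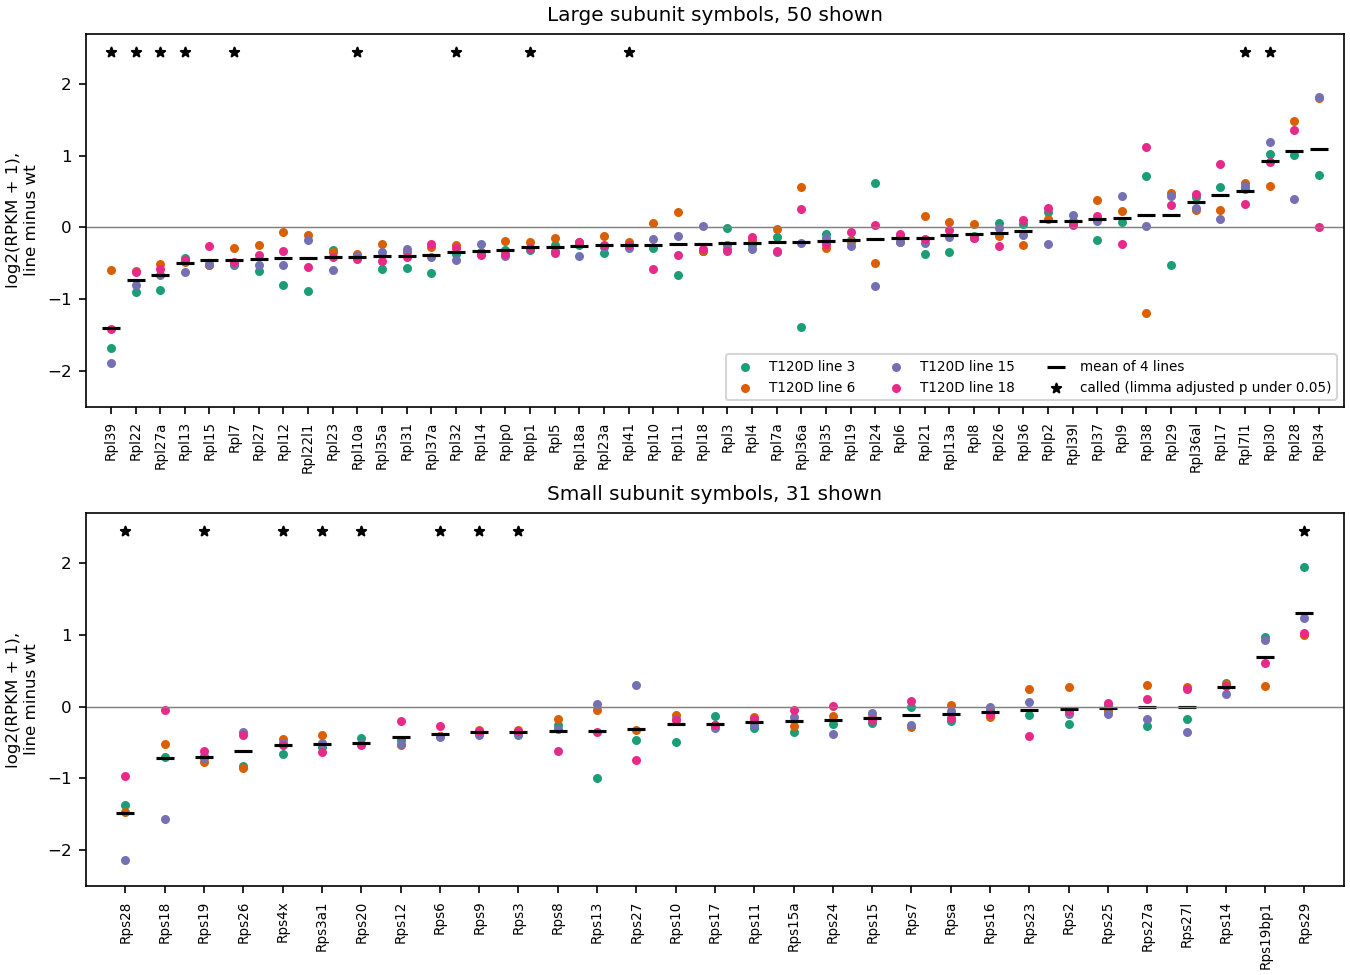
Difference of tested ribosomal protein genes from the wt line on the log2(RPKM + 1) scale (vertical axis), for 50 large subunit symbols (top) and 31 small subunit symbols (bottom), ordered by the mean. Coloured points are the 4 T120D lines, the bar is their mean and a star marks a call; most bars lie below 0, and the widest scatter belongs to genes with few reads, such as Rpl38 and Rpl36a.

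The share of members called differed by level. Of the 18 members with a mean of at least 100 RPKM, 10 were lower (55.6%) and 0 higher, with a median difference of -0.32; the 197 tested genes of that level had 16.8% lower, 28.9% higher and a median of 0.11. Of the 48 members between 10 and 100 RPKM, 8 were lower (16.7%) and 2 higher (4.17%), with a median of -0.23, against 6.92% lower, 13.9% higher and 0.08 over all tested genes of that level. Of the 16 tested members under 10 RPKM, 0 were lower and 1 (6.25%) was higher by limma, near the 4.34% lower and 3.72% higher over all tested genes under 10 RPKM. In that group the median SD over the T120D lines was 0.41 on the log2 scale, against 0.08 in the most abundant group. The spread followed the reads: over 82 members, Spearman's rho between SD and estimated reads was -0.74. Across the same members, the difference had a rho of -0.01 with the share of shared words and of -0.09 with transcript length.

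In the small subunit, 9 of 32 tested genes were called lower (28.1%) and 1 higher (3.13%). Over all tested genes the shares were 5.45% lower and 7.65% higher. The mean difference was below 0 for 29 of the 32. Rps19, needed to mature the small subunit and mutated in Diamond-Blackfan anaemia, was at 42.1, 39.3, 41.2 and 44.1 RPKM in T120D lines 3, 6, 15 and 18 and at 68.2 in wt. The 4 lines lay close together and well below wt, and the log2 difference was -0.70 (SE 0.11, limma adjusted p = 0.00456). Rps20 was at 257.6, 244.2, 242.5 and 240.4 RPKM against 349.9 (-0.51, SE 0.08, limma adjusted p = 0.0051). For Rps4x, which is encoded on the X chromosome, the values were 182.4, 211.2, 202.4 and 199.3 RPKM against 288.4 (-0.54, limma adjusted p = 0.00866). None of the T120D values of these genes reached the wt value. Rps3a1 was at 133.9 ± 9.30 RPKM (SD, n = 4) against 192.9 (-0.53, limma adjusted p = 0.0127).

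Rps6, the protein phosphorylated by S6 kinases downstream of mTOR, was at 122.5, 122.9, 121.8 and 134.8 RPKM against 163.1 (-0.38, limma adjusted p = 0.032), and its call ended without line 3 (limma adjusted p = 0.0738) and without line 15 (0.0621). The call of Rps6 also ended with lines 3, 15 and 18 averaged. Rps9 and Rps3 had log2 differences of -0.36 each, and the call of Rps9 ended without line 3 and with lines 3, 15 and 18 averaged. Rps3 lies at the entry channel for the mRNA, and 8.09% of its coding words were shared with annotated copies. It was at 86.2 ± 2.05 RPKM (SD, n = 4) against 110.7, and its call ended when line 3, 15 or 18 was left out and when they were averaged. Rps28 had the lowest difference of all members, -1.48 (SE 0.35, limma adjusted p = 0.0243), at 8.47, 7.90, 4.60 and 11.6 RPKM against 23.6. This is a difference between about 23 reads in the 4 T120D lines together and 17 in wt. Scaled to depth, the ratio was 0.349, with an exact binomial 95% interval of 0.179 to 0.697 that covers counting error only.

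In the large subunit, 9 of 50 tested genes were called lower (18%) and 2 higher (4%), against the same 5.45% and 7.65% over all tested genes. The mean difference was below 0 for 38 of the 50. Rpl22, which binds RNA and is known for a role in T-cell development, was at 36.8, 45.3, 39.3 and 44.9 RPKM in lines 3, 6, 15 and 18 and at 69.3 in wt. The log2 difference was -0.73 (SE 0.14, limma adjusted p = 0.0102), and every T120D line was well below wt. Rpl27a was at 40.2, 51.8, 46.3 and 49.2 RPKM against 74.2 (-0.66, limma adjusted p = 0.0174), Rpl7 at 209.8 ± 16.05 (SD, n = 4) against 285.8 (-0.45, limma adjusted p = 0.0238) and Rpl13 at 35.9 ± 2.14 against 50.9 (-0.49, limma adjusted p = 0.0266). The call of Rpl7 ended without line 3 (limma adjusted p = 0.0554) and without line 18 (0.0521). With lines 3, 15 and 18 averaged the call of Rpl7 ended as well. Rpl10a, Rpl32, Rplp1 and Rpl41 were also called lower, by 0.41, 0.34, 0.27 and 0.25 on the log2 scale. Rpl41, the shortest ribosomal protein, had the highest level, with 1104, 1137, 1077 and 1103 RPKM against 1310. Its call ended under median scaling (limma adjusted p = 0.0696), and under quantile normalization, which fixes the values of the top ranks, its difference was 0.11. The call of Rplp1 also ended under median scaling (limma adjusted p = 0.0714), as did that of Rpl32, and these 3 calls and that of Rpl10a each ended when line 3, 15 or 18 was left out and when those lines were averaged.

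**Figure D3:**
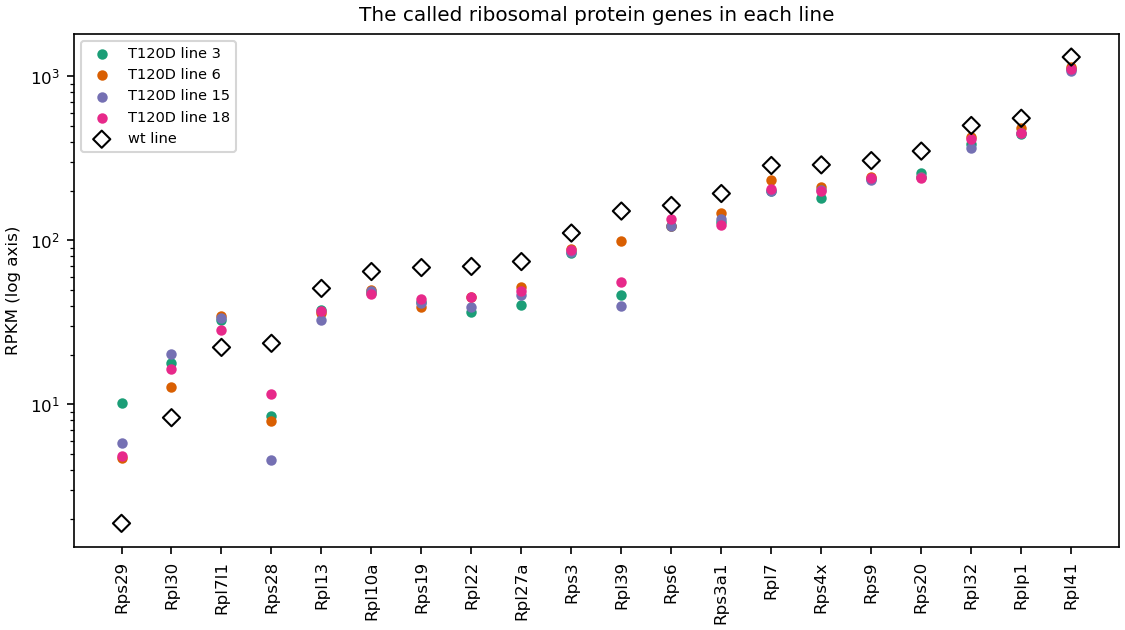
RPKM (log axis) of 20 called ribosomal protein genes, ordered by their level in wt. Coloured points are the 4 T120D lines and the open diamond is the wt line; the diamond lies above all points for 17 genes and below all points for Rps29, Rpl30 and Rpl7l1.

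The 3 genes called higher were Rps29, Rpl30 and Rpl7l1. Rpl30 was at 17.9, 12.8, 20.3 and 16.5 RPKM against 8.29 (0.93, SE 0.21, limma adjusted p = 0.0232). These values stand for about 101 reads in the 4 T120D lines and 13 in wt, a ratio of 2.01 per depth (exact binomial 95% interval 1.12 to 3.90). The call ended without line 3 (limma adjusted p = 0.0513) and with lines 3, 15 and 18 averaged. Rps29, a small zinc-binding protein of the small subunit, was at 10.1, 4.73, 5.78 and 4.87 RPKM against 1.88 (1.30, SE 0.34, limma adjusted p = 0.036). It rests on about 26 reads against 2, and its ratio of 3.36 had an exact binomial 95% interval of 0.841 to 29.2, which includes no difference. The size of its log2 difference depends on the pseudocount, and with 5 RPKM it was 0.70 (limma adjusted p = 0.0662); the call also ended without line 15 (limma adjusted p = 0.053). Rpl7l1, related to Rpl7, was at 32.6, 34.6, 33.6 and 28.3 RPKM against 22.2 (0.51, SE 0.14, limma adjusted p = 0.0397). Its call was lost without line 3 (limma adjusted p = 0.0803), without line 6 (0.0547), without line 15 (0.0755) and under quantile normalization (0.0566).

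Other members known for particular roles were not called. Rplp0, which anchors the stalk that recruits elongation factors, was at 496.6, 542.2, 466.8 and 477.0 RPKM against 617.8, with a difference of -0.32 and a limma adjusted p of 0.0544. It passed without line 6 (limma adjusted p = 0.0138), with a pseudocount of 5 RPKM (0.0495), with a filter at 5 RPKM (0.0396), with lines scaled to the same RPKM total (0.0448) and under quantile normalization (0.0393). Its stalk partner Rplp2 was at 9.92 ± 1.57 RPKM (SD, n = 4) against 9.15 (limma adjusted p = 0.807). Rpl5 and Rpl11, which bind MDM2 when ribosome assembly is disturbed, were at 31.3 ± 2.16 and 9.53 ± 2.74 RPKM against 37.8 and 11.1, with limma adjusted p of 0.197 and 0.629. Rpsa, also called the laminin receptor, was at 120.4 ± 8.56 RPKM against 129.1 (limma adjusted p = 0.58). Rps27a, made as a fusion with ubiquitin, was at 44.2 ± 8.28 RPKM against 43.8 (limma adjusted p = 0.987). Among the most abundant members, Rpl8 was at 641.9 ± 44.1 RPKM against 683.7 and Rps15 at 434.2 ± 18.0 against 486.9, with limma adjusted p of 0.55 and 0.215. A p above the threshold does not show that these levels were equal.

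Both subunits had medians below 0. The median difference was -0.23 over 50 large subunit genes and -0.24 over 32 small subunit genes, and large minus small was 0.01. Large minus small was 0.02 for each of lines 3 and 6, 0.05 for line 15 and -0.05 for line 18, so its sign changed between lines. Without the paralogs and Rps19bp1 it was 0.04, and among members with under 50% of words shared 0.14. The difference between subunits was not tested. The called shares were 18% lower and 4% higher in the large subunit and 28.1% lower and 3.13% higher in the small subunit. The summed RPKM of large over small subunit genes was 1.71 in wt and 1.72 to 1.82 in the T120D lines, above wt in all 4.

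Several members had too few reads to be placed. Rps21 was at 0.938 RPKM in wt, about 1 read, and at 0 in every T120D line, and with Rps4y2 it was not tested. Rps4y2, highest in line 15 at 0.80 RPKM, is listed by RefSeq as a transcribed pseudogene under the name Rps4l. Rpl34, the tested gene nearest the filter, was listed at 0 in wt and in line 18 and at 0.665, 2.48 and 2.53 RPKM in lines 3, 6 and 15. Rpl38, whose loss alters Hox translation in mouse embryos, was at 2.78, 0, 1.32 and 3.995 RPKM against 1.29, that is 0 to 4 reads. Rpl36a, Rpl24 and Rps18 had the next largest SD over the T120D lines, with ranges of 0.809 to 6.04, 1.11 to 4.66 and 2.87 to 10.1 RPKM. The wt values were 3.75 for Rpl36a and 2.7 for Rpl24, inside those ranges, and 10.5 for Rps18, just above.

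Among the T120D lines, line 6 held the highest value most often. It was highest for 39 of the 82 members (47.6%), against 25.4% of all tested genes. Line 3 was lowest for 28 and line 15 for 25, and the share over all tested genes was not computed for the lowest value. The median distance of line 6 from the mean of the other T120D lines was 0.09 over the members and -0.01 over all tested genes. Rpl39 showed the largest such gap among the called genes, at 99.3 RPKM in line 6, 46.2, 40.0 and 55.9 in lines 3, 15 and 18 and 150.8 in wt. Its difference from wt was -1.40 (SE 0.38, limma adjusted p = 0.042), and the call ended without line 3 (limma adjusted p = 0.0804) and without line 18 (0.0795). With lines 3, 15 and 18 averaged the call ended too. Rpl39, a protein of the exit tunnel, is encoded on the X chromosome. In the GRCm38 gene order the 20 tested neighbours of Rpl39, 10 on each side, had a median difference of -0.51 in lines 3, 15 and 18 and of 0.09 in line 6. Rpl39 itself differed by -1.66 and -0.60. The part of the neighbourhood in its value was not tested. For the other X-linked members, Rpl10, Rpl36a and Rps4x, the neighbours had medians between -0.24 and 0.01 in both sets of lines.

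The paralogs moved apart from their partners in part. Of the 6 tested paralogs and Rps19bp1 symbols, 1 (16.7%, against 7.65% of all tested genes) was called higher and 0 lower (against 5.45%), with a median difference of 0.22, against -0.24 for the 76 tested strict ribosomal protein genes. Paralog ratios were taken on the log2(RPKM + 1) scale in each line and were not tested, since 1 line was set against 4. Rpl7l1 over Rpl7 was -2.58, -2.72, -2.55 and -2.82 in lines 3, 6, 15 and 18 and -3.63 in wt, so every T120D line lay above wt. Rpl39l, a paralog known from testis, was at 63.3 ± 2.50 RPKM (SD, n = 4) against 59.2 and was not called (limma adjusted p = 0.592). Its ratio to Rpl39 was 0.45, -0.66, 0.72 and 0.12 against -1.33 in wt. That gap of 1.49 came from Rpl39 and not from Rpl39l, whose own difference was 0.09.

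**Figure D4:**
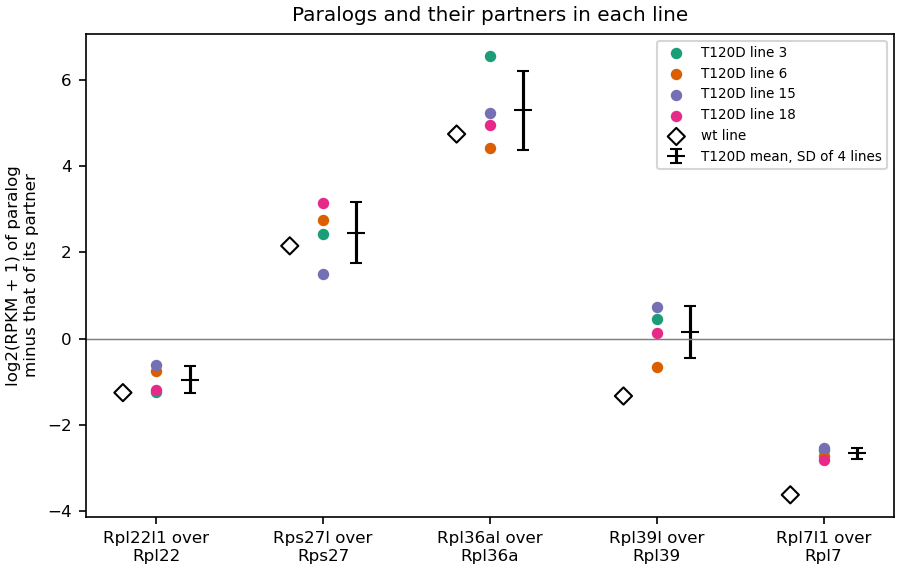
Log2(RPKM + 1) of 5 paralogs minus that of their partners (vertical axis), by pair. Coloured points are the 4 T120D lines, the bar with whiskers their mean and SD, and the open diamond the wt line; the diamond lies well below all T120D points for Rpl7l1 over Rpl7 and Rpl39l over Rpl39, just below the lowest for Rpl22l1 over Rpl22, and within their range for the other pairs.

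Rpl22l1, which Rpl22 protein is known to repress, was at 14.9, 26.3, 25.2 and 19.1 RPKM against 28.4 and was not called (-0.43, limma adjusted p = 0.325). Its ratio to Rpl22 was -0.96 ± 0.31 (SD, n = 4) against -1.26 in wt. Rps27l, a target of p53, was at 26.5 ± 5.80 RPKM against 26.1, and Rps27 at 4.12 ± 1.69 against 5.10, with limma adjusted p of 0.9995 and 0.603. Rpl36al was at 161.4 ± 12.7 RPKM against 126.3 and higher in every T120D line, but not called (0.35, limma adjusted p = 0.071). Its partner Rpl36a was at 3.64 ± 2.25 RPKM against 3.75. Coding sequences separate these pairs better than they separate genes from pseudogenes: none of the 5 pairs shared a word of 50 bases, and identity was 63.4% to 87.7%. The stretches of Rpl22 and Rpl39 with their paralogs show this, with the differing bases in capitals.
Rpl22: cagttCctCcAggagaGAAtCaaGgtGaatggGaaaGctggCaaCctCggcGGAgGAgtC
Rpl22l1: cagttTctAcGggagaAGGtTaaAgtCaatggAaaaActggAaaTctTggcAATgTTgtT
Rpl39: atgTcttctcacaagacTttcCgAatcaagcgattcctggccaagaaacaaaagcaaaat
Rpl39l: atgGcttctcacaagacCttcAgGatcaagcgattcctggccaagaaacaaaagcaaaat
The first pair differs at 20 of 60 bases and the second at 4.

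Other genes of the ribosome and of translation did not all move with the members. Fau, a ubiquitin-like fusion that encodes a small subunit protein, was at 45.2 ± 8.12 RPKM (SD, n = 4) against 52.4 (limma adjusted p = 0.485). Of 24 translation factor and TOP genes, 4 were lower and 0 higher, with a median of -0.13. Eef1a1, which brings aminoacyl-tRNA to the ribosome, was at 1846 ± 100.9 RPKM against 2433 (-0.40, limma adjusted p = 0.0123), Eef2, the translocation factor, at 583.9 ± 21.5 against 748.2 (-0.36, limma adjusted p = 0.0175) and Eif4b at 102.2 ± 5.51 against 140.2 (-0.45, limma adjusted p = 0.0197). The calls of Eef1a1, Eef2 and Eif4b ended when genes of every level were tested (limma adjusted p = 0.14, 0.0817 and 0.0569) and without the trend (0.145, 0.169 and 0.111). Averaging lines 3, 15 and 18 ended those of Eef1a1 (limma adjusted p = 0.0579) and Eef2 (0.0621), and quantile normalization that of Eef1a1. The fourth was Gnb2l1, which encodes the small subunit protein RACK1, at 409.5 ± 11.7 RPKM against 501.8 (-0.29, limma adjusted p = 0.0363), named after its value was seen. The share of lower genes, 16.7%, lay above the 5.45% over all tested genes. This share depends on level, and the list had a median of 51.3 RPKM in wt. Of all tested genes averaging 10 to 100 RPKM, 6.92% were called lower, and of those at 100 RPKM or more 16.8%. The 4 called genes each averaged over 100 RPKM.

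Ribosome assembly genes lay on the other side. Of 58 tested genes for nucleolar and assembly factors, 15 were higher (25.9%, against 7.65% over all tested genes) and 0 lower, with a median of 0.39. Nhp2, a protein of H/ACA particles, was at 39.0, 36.0, 38.9 and 30.6 RPKM against 13.5 (1.35, limma adjusted p = 0.000874). Bysl, a factor of small subunit assembly, was at 9.55 ± 1.45 RPKM (SD, n = 4) against 4.0 (1.07, limma adjusted p = 0.0103), and Nop56, a box C/D protein, at 45.7 ± 4.08 against 23.8 (0.91, limma adjusted p = 0.0031). All 4 T120D lines were above wt for 45 of the 58 genes (77.6%, against 31.1%). These shares depend on level, and the assembly genes had a median of 9.78 RPKM in wt. Of all tested genes averaging 10 to 100 RPKM, 42.6% had all 4 lines above wt and 13.9% were called higher. Under 10 RPKM the shares were 24.5% and 3.72%. Mitochondrial ribosomal protein genes had 7 of 76 higher and 0 lower, with a median of 0.16, a share of 9.21% near the 7.65% over all tested genes. Mrps18b, Mrpl53 and Mrpl45 had the largest differences, 1.10, 0.95 and 0.86, with limma adjusted p of 0.00542, 0.00328 and 0.0369. The call of Mrpl45 ended without line 3 (limma adjusted p = 0.072) and without line 18 (0.0723).

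**Figure D5:**
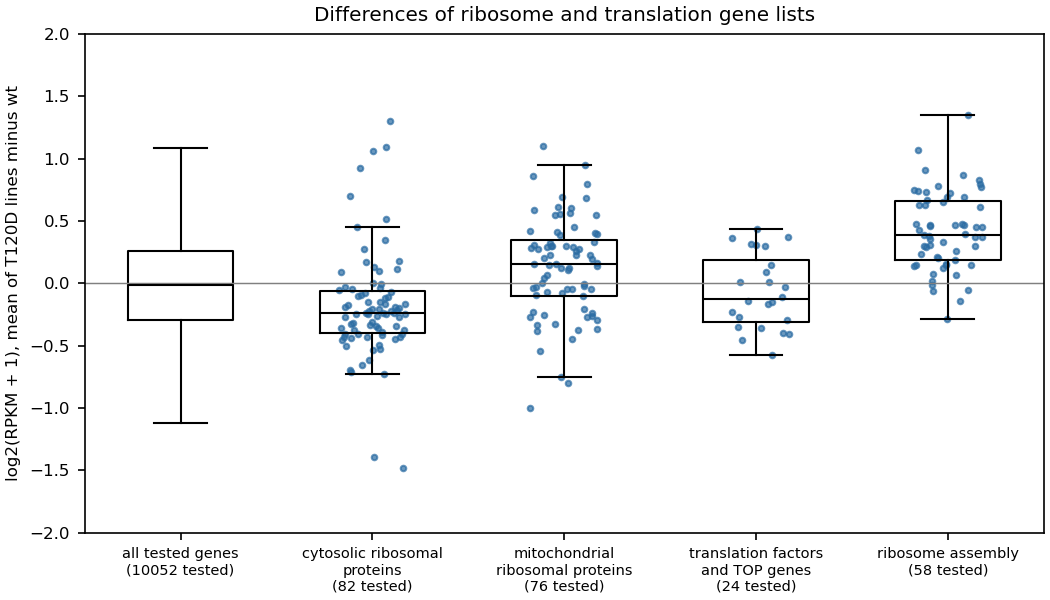
Differences between the mean of the T120D lines and wt on the log2(RPKM + 1) scale (vertical axis) for all tested genes and 4 gene lists; boxes span the quartiles with the median, whiskers reach the last value within 1.5 box lengths, and points, drawn for the lists, are single genes. The cytosolic ribosomal proteins have their median at -0.24, the assembly genes at 0.39, and all tested genes at -0.02.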

How the data were processed

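Stranded mRNA libraries of 5 lines were sequenced on a MiSeq, per the labels' protocols. The deposited files give RPKM per gene symbol, made by the authors with Partek and build mm9, per the submitters' processing notes; the sources used here do not give the aligner, the annotation or the handling of multi-mapped reads and strand. Values were used as log2(RPKM + 1). Genes that averaged 1 RPKM or more were tested with limma 3.58.1 in R 4.3.3 (empirical Bayes, intensity trend, two-sided, 3 residual and 5.99 prior degrees of freedom), with Benjamini-Hochberg adjustment and calls under 0.05. The fit was tested on simulated data. p-values measure only the spread between the T120D lines, which may be technical.

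Depth was estimated from single-transcript genes with values under 20 reads. At the best depth, 47.1% to 49.8% of them came within 0.05 of a whole read, against 10% by chance. Whole reads were therefore not recovered for most genes, and reads given for single genes are estimates from GRCm38 transcript lengths. Shared words, identities (Biopython 1.88) and pyrimidine tracts were computed from GENCODE M21 and RefSeq sequences.

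Members and lists were chosen with earlier results of these data known, so list counts and medians are descriptions. Named were the 10 called members that fell most and up to 10 that rose most, the 5 highest levels, the 5 largest spreads, paralog pairs, members with set roles, those next to the filter, and the 3 largest called differences in each other list. The further called members Rps3, Rps9, Rpl10a and Rpl32 were named after their values were seen. Another called member is counted but not reported by name or drawn in the plots of single genes. Alternatives were other pseudocounts, filters, scalings and variance model, lines left out, and lines 3, 15 and 18 averaged.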

Additional observations from a re-analysis of the deposited data

Results flagged for a closer look

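Of 83 ribosomal protein genes whose 4 T120D lines differed, 4 had a single line far from the other 3, where chance gives about 1 in 20. Rpl15 was at 54.02 RPKM in line 18 and at 44.7 to 45.5 in the others. Rps6 was at 134.8 RPKM in line 18, above 121.8 to 122.9. Rpl18 was at 59.8 RPKM in line 15, above 46.6 to 47.5, and close to the 58.9 of wt. Rpl29 was at 11.1 RPKM in line 3, below 20.85 to 23.4.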

How the results depend on the processing

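The median difference of the members stayed between -0.28 and -0.21 under every alternative run. The counts moved: without the filter on low values 6 members were lower and 0 higher, of which 5 were among the 21 original calls, and by limma without a trend 1 was lower and 0 higher. With lines 3, 15 and 18 averaged as 1 sample, 11 were lower and 3 higher. Leaving out 1 line at a time gave 8 to 19 lower and 1 to 4 higher, a large minus small difference of -0.044 to 0.031 and a median of -0.14 to -0.086 for the translation factor and TOP genes. Among the 12 tested members with under 50% shared words, an alternative chosen after seeing the data, 5 were lower and 1 higher of fewer genes, and large minus small was 0.14. With at least 20 estimated reads, also chosen afterwards, 17 were lower and 2 higher. The assembly genes' median was 0.46 with a pseudocount of 0.1 RPKM, 0.30 with 5 RPKM and 0.45 for genes averaging 5 RPKM or more.

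Differences of genes not called changed sign as follows. With lines 3, 15 and 18 averaged, the values were 0.057 for Rpl36a, -0.28 for Rpl38, 0.10 for Rps27a and 0.092 for Rps27l. Leaving out 1 line at a time gave -0.42 to 0.052 for Rpl24, -0.45 to 0.20 for Rpl36a, -0.15 to 0.62 for Rpl38, -0.11 to 0.081 for Rps27a and -0.093 to 0.12 for Rps27l. A pseudocount of 0.1 RPKM gave -0.29 for Rpl38 and 5 RPKM gave 0.0024 for Rps27l. Median scaling gave 0.015 for Rps27a and 0.021 for Rps27l, and quantile normalization 0.030 for Rpl8. Among called genes, Rpl41 changed sign, to 0.11, under quantile normalization. The causes were not tested. No paired analysis was possible because the wt group is 1 line and shares no replicate number with T120D. In all, 19 members had under 20 estimated reads, where a change of a few reads sets the value.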

Other observations

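Genes listed for TOP signalling had 1 lower (6.67%) and 0 higher of 15 tested, with a median of 0.16. The list holds genes of the mTOR pathway, which controls translation of TOP mRNAs, and others such as Myc. The lower share is near the 5.45% over all tested genes. The lower gene was Pdcd4, an inhibitor of the initiation helicase, at 2.86, 3.43, 1.93 and 2.76 RPKM in lines 3, 6, 15 and 18 and 7.01 in wt (-1.11, limma adjusted p = 0.0226). Every T120D line lay below wt, at a low level. Chosen after their values were seen, 5 genes that were not called are given too. Rps6kb2, an S6 kinase, was at 2.53 ± 0.766 RPKM (SD, n = 4) against 5.17 (-0.83, limma adjusted p = 0.0972) and Tsc1, an inhibitor of mTOR signalling, at 4.94 ± 0.352 against 8.10 (-0.62, limma adjusted p = 0.054), each with all 4 T120D lines below wt. Larp1, which binds TOP mRNAs, was at 33.1 ± 2.06 RPKM against 24.8 (0.40, limma adjusted p = 0.0642). Myc was at 46.9 ± 2.52 RPKM against 37.2 (0.33, limma adjusted p = 0.0916) and Mtor at 1.85 ± 0.126 against 2.09.

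The pseudogene symbols of ribosomal proteins were left out of the member counts. Rpl31-ps12 averaged 79.7 ± 17.2 RPKM (SD, n = 4) over the T120D lines against 125.8 for wt, Rps15a-ps6 at 131.8 ± 12.7 against 174.9 and Rps15a-ps4 at 124.7 ± 10.0 against 156.8. Their limma adjusted p were 0.071, 0.0593 and 0.084. Rplp2-ps1 was at 684.7 ± 19.7 RPKM against 752.2 (limma adjusted p = 0.257). Rps19-ps3 was at 12.4 ± 2.9 RPKM against 12.1 (limma adjusted p = 0.976), with T120D lines on both sides of wt.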
